A study of Homo sapiens with 4 samples.

Results

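Some positions on a whole-transcript array cannot be read as a single gene, because the annotation gives the transcript cluster the names of several genes. Of 135750 rows tested, 1119 had an identifier starting with TC and at least 2 gene symbols in the platform annotation, against 36176 rows naming 1 gene and 98455 naming none. The rows were split by their names alone. A row with any SNORD, SNORA or MIR gene was put in the small-RNA class, which held 424 rows, and the other 695 rows named only other genes. The samples were H929 cells, a line grown from a human multiple myeloma, of which 2 were untreated and 2 received meayamicin B at 3 nM for 8 h, each on its own array. Both groups are the same line with no genetic change between them, and separate cultures are not stated for the replicates. An array of bulk RNA cannot tell fewer cells from less RNA per cell. All 9 plasma cell markers examined (SDC1, TNFRSF17, CD38, IRF4, PRDM1, XBP1, MZB1, JCHAIN and SLAMF7) were above background. So were some but not all markers of each other cell type examined (CD3E, CSF1R, HBA1, HBB, KRT8, KRT18, COL1A1 and COL1A2). Being above background therefore does not by itself identify a cell type.

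Meayamicin B inhibits pre-mRNA splicing by binding SF3B, the part of the U2 snRNP that recognises the branch site of an intron. Most human box C/D snoRNAs (SNORD genes) and box H/ACA snoRNAs (SNORA genes) lie in introns of host genes and are trimmed out of the intron after splicing. They guide 2′-O-methylation and pseudouridylation of ribosomal RNA. Many microRNAs also lie in introns. Most are cut out by Drosha, but those called mirtrons form from short introns that are themselves the hairpin precursor, so that one end of the hairpin is a splice site. A transcript cluster groups such nested genes into 1 value, which therefore cannot be assigned to the host or to the small RNA, and every row is named below by all its symbols.

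The microRNAs on rows that fell are shown first because of how their sequences end. Of 18 small-RNA rows that fell in the trended fit described below, 7 named a coding gene with a microRNA that has a mature arm ending in AG, the letters that close an intron. A further 5 rows of a coding gene and a microRNA fell and have no such arm. Such an arm is common on rows of this kind whether or not they fell, at 70 of 201 with a mature sequence, or 34.8%. The 3p arms of these 7 are given 5′ to 3′ from RefSeq (GRCh38.p14), with the seed, bases 2 to 8, in capitals.
hsa-miR-6789-3p: cGGCGCCCgugucuccuccag
hsa-miR-6823-3p: uGAGCCUCuccuucccuccag
hsa-miR-4742-3p: uCUGUAUUcuccuuugccugcag
hsa-miR-4667-3p: uCCCUCCUucuguccccacag
hsa-miR-6734-3p: cCCUUCCCucacucuucucucag
hsa-miR-6878-3p: cUGGCCUCuucuuucuccuag
hsa-miR-6758-3p: aCUCAUUCuccucuguccag
No seed was shared between them. They were picked for that ending, and microRNAs of other rows that fell, such as miR-1825, miR-6132 and miR-4745, do not have it. The microRNAs of rows that rose are given as far as they are printed here.
hsa-miR-6501-5p: aGUUGCCAgggcugccuuuggu
hsa-miR-6501-3p: cCAGAGCAgccugcgguaacagu
hsa-miR-1184: cCUGCAGCgacuugauggcuucc
hsa-miR-1304-5p: uUUGAGGCuacagugagaugug
Whether these hairpins border an exon was not examined here.

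Several snoRNA host genes also sit on rows that rose or fell, and their starts are shown because many genes of this kind begin with a pyrimidine tract. The windows run from 25 bases before to 50 bases from the first base in the RefSeq promoter table (GRCh38.p14, gene strand), with the run of C and T that begins at the first base in capitals.
SNHG12, chr1:28581824-28581898, minus strand: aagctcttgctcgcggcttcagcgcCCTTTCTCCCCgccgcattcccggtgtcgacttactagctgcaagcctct
TAF1D, chr11:93741446-93741520, minus strand: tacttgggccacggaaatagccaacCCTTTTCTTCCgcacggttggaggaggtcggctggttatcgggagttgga
SNHG1, chr11:62855836-62855910, minus strand: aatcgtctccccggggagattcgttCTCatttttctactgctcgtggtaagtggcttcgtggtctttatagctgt
SNHG17, chr20:38435279-38435353, minus strand: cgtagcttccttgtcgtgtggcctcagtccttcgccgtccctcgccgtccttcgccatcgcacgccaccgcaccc
For SNHG12 that first base lies inside the gene's full RefSeq span, which ends at 28582983, and for the other 3 it is the end of the span. The row with SNHG12 fell and those with TAF1D, SNHG1 and SNHG17 rose. For SNHG15, whose row also rose, no start was read. Of the other hosts not printed, IPO7 (fell) has a run of 6, while NOP56 (fell) and KANSL2 (rose) begin with A and have none. Starts with and without a run were thus found in both directions. A C at the first base within a run of at least 5 pyrimidines was found for 27 of 67 genes that share a row with a snoRNA, or 40.3%, against 1104 of 27305 genes in the promoter table, or 4.04%. Only the gene strand was read and the table's start was taken as given.

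Values are the deposited log2 expression of each array. For a row to count as above background in a group, each of its 2 values had to be higher than the 95th percentile of that array's 612 negative control rows, which was 4.50 and 4.76 in the untreated and 5.03 and 5.13 in the treated arrays. Array medians lay between 3.03 and 3.08. In the small-RNA class 308 rows were above background in at least 1 group and 116 were not, and among the rows naming only other genes 368 were and 327 were not. The row with the most names in the small-RNA class, a block of SNORD115 genes, was below background on every array, at 2.60 and 2.41 untreated and 2.48 and 2.97 treated. Identical values on all 4 arrays were shared by 115 of the 1119 rows with at least 1 other row, up to 12 rows for a single profile, so copies were not told apart there and such rows are described once.

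The first question was how many of these rows differed with meayamicin B. In limma's default fit 1 row passed an adjusted p under 0.05, a lower one. An unadjusted limma p under 0.05 was found for 188 of the 1119 rows. The same held for 4884 of 36176 rows naming 1 gene and for 7717 of 98455 naming none. Over all rows tested 0.0162% passed the adjusted threshold, 0.0118% higher and 0.00442% lower. Among rows naming 1 gene and above background 0.0665% did, 0.0465% higher and 0.0199% lower. A second fit, in which the prior variance follows the signal level and which is called the trended fit, gave 51 rows, 13 higher and 38 lower. All 51 were above background in at least 1 group, which is 7.54% of the 676 such rows. Over all rows tested 1.17% passed in the trended fit, 0.248% higher and 0.922% lower, and among rows naming 1 gene and above background 7.19% did, so the share is near that of ordinary genes at a measurable level. Below, "rose" and "fell" are used only of rows that passed in the trended fit (limma, adjusted p under 0.05 over all rows), and SEs are from the default fit. The count depends on single arrays. The direction cannot, because the groups do not overlap in any of the 51 rows, so leaving out an array could not reverse it. Leaving out the second untreated array gave 12 calls, leaving out the first gave 18, and leaving out the second treated array gave 27. All 51 rows kept their direction when any array was left out, and 10 passed in each of the 4 fits, which is written below as called whichever array was left out.

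Calls in each direction were counted by what the row names. Of the 308 small-RNA rows above background, 10 rose and 18 fell, or 3.25% and 5.84%. The 10 include 2 rows of MIR1184 genes with identical values. Of the 368 rows naming only other genes, 3 rose and 20 fell, or 0.815% and 5.43%. Among rows naming 1 gene and above background, 0.778% rose and 6.41% fell. Where that gene was a snoRNA, 7.69% rose and 0% fell, and where it was a microRNA, 1.68% rose and 0.559% fell. The difference in shares was not tested. Groups that did not overlap, with treated higher or lower, were found for 68 and 118 of the small-RNA rows and for 75 and 145 of the others. The same held for 19.3% and 38.9% of rows naming 1 gene and above background, and for 21.1% and 17.9% of all rows tested. The median log2 difference, treated minus untreated, was -0.05 in the small-RNA class and -0.12 in the other, against -0.09 over 15044 rows naming 1 gene. Single rows ran from -2.08 to 1.57 in the small-RNA class and from -2.19 to 0.70 in the other.

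**Figure D1:**
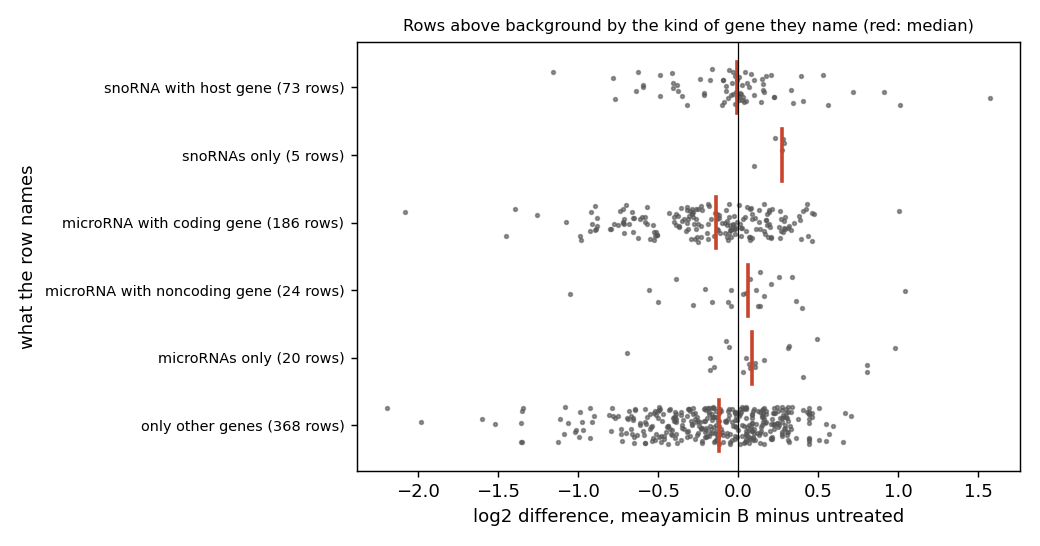
Log2 difference (meayamicin B minus untreated, x axis) of each row above background, by the kind of gene it names (y axis, with the number of rows), with the median as a red bar. Medians lie between -0.14, for microRNAs named with a coding gene, and 0.27, for rows naming only snoRNAs.

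Rows that hold a snoRNA with its host were mostly bright and close to unchanged in median. Of 80 such rows 73 were above background, with a median untreated level of 10.59 on the log2 scale and a median difference of -0.01, and 5 rose and 3 fell. The 4 brightest small-RNA rows had differences near 0: RPL10 / SNORA70 differed by -0.04 (SE 0.18), RPL17 / SNORD58A / SNORD58B / SNORD58C by -0.02 (SE 0.18), HSPA8 / SNORD14C / SNORD14D by -0.24 (SE 0.18) and RPL28 / MIR6805 by 0.02 (SE 0.18). RPL10, RPL17 and RPL28 encode ribosomal proteins and HSPA8 the constitutive HSC70 chaperone. GAS5, a noncoding host whose row carries 9 SNORD names, was at 12.001 and 12.15 untreated and 12.15 and 12.08 treated, and the groups overlapped.

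The row SNORA71A / SNHG17, of a noncoding host on chromosome 20 at 38420588 to 38435328, rose 2.98-fold. It was at 8.78 and 8.87 untreated and at 10.22 and 10.58 treated, so the groups lay far apart relative to their spread. Its log2 difference was 1.57 (SE 0.21, 95% confidence interval 1.08 to 2.06), with a limma adjusted p of 0.0015 in the trended fit, and it was called whichever array was left out. The default fit gave a limma adjusted p of 0.0836.

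SNORA9 / SNHG15 rose 2.02-fold, from 6.69 and 6.85 to 7.64 and 7.92. Rows naming only SNORA9 had differences of 0.75 and 1.03 and did not pass, and their identifiers place them on another chromosome. The row of SNHG1 with SNORD22 and SNORD25 to SNORD31, a noncoding host of box C/D snoRNAs, rose 1.64-fold from 10.98 and 10.95 to 11.70 and 11.66, with replicates close together, and was called whichever array was left out. TAF1D, which encodes a subunit of the RNA polymerase I factor SL1, shares a row with 6 SNORA genes, SNORD5 and MIR1304. That row rose 1.47-fold from 10.17 and 10.35 to 10.87 and 10.77. Rows naming only SNORA8, SNORA18 or SNORA1 lie on other chromosomes by their identifiers, so they share a family name with this row and not a host. They ran from 0.02 for a row of SNORA8 to 1.33 for SNORA1, which rose. KANSL2 / SNORA2B, whose coding gene belongs to the NSL histone acetyltransferase complex, rose 1.88-fold from 8.18 and 8.02 to 8.85 and 9.16.

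In the opposite direction, SNORA44 / SNORA61 / SNORA16A / SNHG12 fell 2.23-fold. It was at 10.18 and 10.36 untreated and 9.07 and 9.15 treated (log2 difference -1.16, SE 0.19, limma adjusted p = 0.0026 in the trended fit) and was called whichever array was left out. Noncoding snoRNA hosts were therefore found among both the rows that rose and those that fell. NOP56 encodes a core protein of box C/D snoRNPs. Its row, which also names 4 SNORD genes, SNORA51 and MIR1292, fell 1.70-fold from 10.78 and 10.67 to 9.94 and 9.97 and was called whichever array was left out. IPO7 / SNORA23, of an import receptor for ribosomal proteins, fell 1.72-fold from 10.33 and 10.26 to 9.38 and 9.65.

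From a list of 82 snoRNA host genes, 51 were named on 50 of these rows. Of the 49 rows above background 4 rose and 3 fell, with a median difference of -0.01, and TMEM107 / SNORD118 was among the lowest at -0.49 (SE 0.23) without passing. Rows naming 1 gene of the list were 51 above background, of which 1 rose and 5 fell, with a median of -0.03. The number of rows that rose or fell on each side is too small for more than a count.

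**Figure D2:**
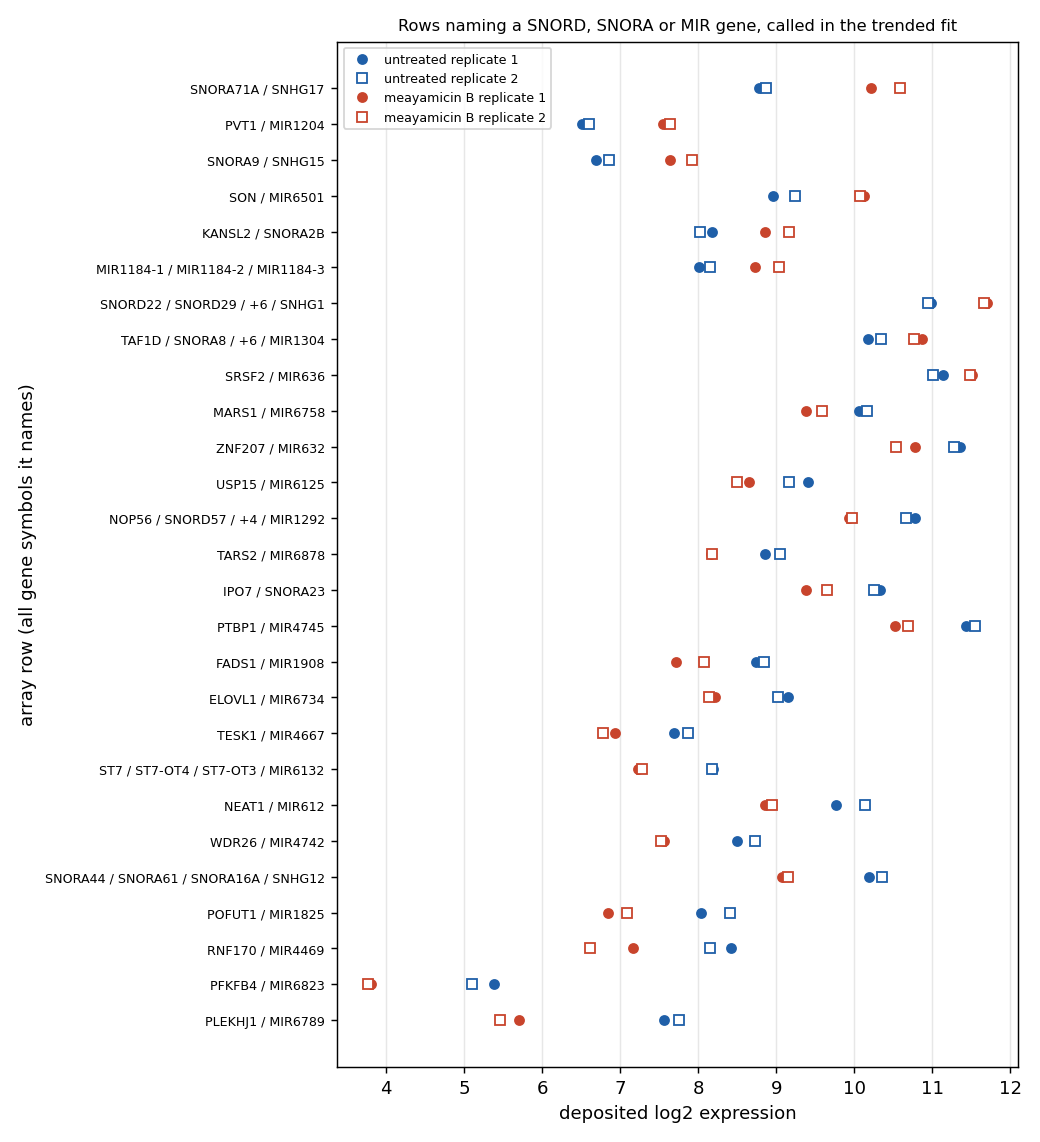
Deposited log2 expression (x axis) on each of the 4 arrays for the small-RNA rows called in the trended fit, ordered by their difference, with identical rows drawn once and long names shortened to the number of symbols left out. Blue is untreated and red meayamicin B, and no row shows overlap between the groups.

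Rows naming a microRNA with a coding gene made up the largest kind, with 221 rows of which 186 were above background. Their median difference was -0.14, 2 rose and 14 fell, or 1.08% and 7.53%. Over 11018 rows of 1 coding gene above background the median was close to this, at -0.13. Of those rows 0.735% rose and 8.21% fell, so the shares are near each other too. Where strand and position were known, the hairpin lay inside the coding gene on its strand in 149 rows. Of 201 rows with a mature sequence in RefSeq, 70 had an arm ending in AG, or 34.8%, against 16.3% of 1736 microRNA genes. The 59 AG rows above background had a median difference of -0.23 (quartiles -0.58 and 0.05), and 7 fell and 0 rose. The 108 rows without such an arm had a median of -0.12 (quartiles -0.38 and 0.09), and 5 fell and 1 rose. The difference between these sets was not tested.

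PLEKHJ1 / MIR6789 had the lowest difference in the small-RNA class. PLEKHJ1 encodes a protein with a pleckstrin homology domain, and the hairpin lies inside it on chromosome 19 at 2235829 to 2235926. The row fell 4.22-fold, from 7.57 and 7.75 to 5.70 and 5.46 (log2 difference -2.08, SE 0.20, limma adjusted p = 0.00188 in the trended fit), and was called whichever array was left out.

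PFKFB4 / MIR6823, of a regulator of glycolysis, fell from 5.38 and 5.10 to 3.81 and 3.77. It was at least 1.12-fold lower, since neither treated array exceeded the background. WDR26 / MIR4742, of a subunit of the CTLH ubiquitin ligase, fell 2.11-fold from 8.50 and 8.73 to 7.56 and 7.52. TESK1 / MIR4667, of a kinase of cofilin, fell 1.89-fold and ELOVL1 / MIR6734, of a fatty acid elongase, 1.88-fold. The mitochondrial threonyl-tRNA synthetase row TARS2 / MIR6878 fell 1.71-fold and the methionyl-tRNA synthetase row MARS1 / MIR6758 fell 1.54-fold. These are the 7 rows whose microRNAs are printed above with AG ends.

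Of the other rows of a coding gene and a microRNA that fell, 5 have no arm ending in AG and 2, RNF170 / MIR4469 and ZNF207 / MIR632, had no mature sequence used here. PTBP1 encodes a repressor of exon inclusion that binds pyrimidine tracts. PTBP1 / MIR4745 fell 1.84-fold from 11.43 and 11.55 to 10.52 and 10.69, with a limma adjusted p of 0.00358 in the trended fit, and was called whichever array was left out. RNF170 / MIR4469, of a ubiquitin ligase of the endoplasmic reticulum, fell 2.63-fold from 8.42 and 8.15 to 7.17 and 6.61. POFUT1 / MIR1825, whose enzyme adds O-fucose to Notch, fell 2.39-fold. The fatty acid desaturase row FADS1 / MIR1908 fell 1.86-fold, the deubiquitinase row USP15 / MIR6125 1.64-fold, and ST7 / ST7-OT4 / ST7-OT3 / MIR6132 fell 1.90-fold. ZNF207 / MIR632, of the kinetochore and spindle protein BuGZ, fell 1.58-fold. HPS1 / MIR4685 (-0.99, SE 0.26) and TCEANC2 / MIR4781 (-0.98, SE 0.19) had differences of similar size and did not pass, so the boundary of the call falls among rows of this size.

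The 2 rows of a coding gene and a microRNA that rose were SON / MIR6501 and SRSF2 / MIR636. SON encodes a nuclear speckle protein needed for efficient splicing. Its row, on chromosome 21, rose 2.0-fold from 8.96 and 9.23 to 10.13 and 10.07 (limma adjusted p = 0.00584 in the trended fit), and was called whichever array was left out. SRSF2 is an SR protein of splicing, and its row rose 1.34-fold from 11.14 and 11.01 to 11.51 and 11.48. Its default-fit confidence interval ran from -0.01 to 0.86, so its size is poorly bounded.

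Among 24 rows above background that name a microRNA with a noncoding gene, 1 rose and 1 fell. PVT1 / MIR1204 rose 2.06-fold, from 6.5 and 6.60 to 7.55 and 7.63. PVT1 is a noncoding RNA gene beside MYC. NEAT1, the noncoding scaffold of paraspeckles, shares a row with MIR612, which fell 2.07-fold from 9.77 and 10.14 to 8.85 and 8.95. Hosts of well-known microRNA clusters did not pass. MIR17HG with 6 microRNAs was at 4.85 and 5.0 untreated and 4.82 and 4.95 treated, the latter under the background of those arrays. MIR155HG / MIR155 was at 4.71 and 5.0 and then at 4.96 and 5.02, again overlapping and under the treated background. DLEU2 / MIR15A / MIR16-1 / MIR3613 was at 7.39 and 7.65 and then at 7.32 and 6.60 (difference -0.56, SE 0.27), with both treated values lower.

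From a list of 60 microRNA host genes, 14 were named on 14 of these rows. Of the 11 above background 0 rose and 0 fell in the trended fit. Among all 14 rows, 4 had an unadjusted limma p under 0.05 in that fit and 3 in the default fit. Of 36176 rows naming 1 gene, 5679 did in the trended fit and 4884 in the default fit. So few rows allow no more than a count. The lowest were GABRE / MIR224 / MIR452 at -0.88 (SE 0.22) and COPG2 / TSGA13 at -0.65 (SE 0.20). The highest was AOPEP / MIR24-1 / MIR23B / MIR27B at 0.32 (SE 0.19). On rows naming 1 gene, 1 gene row of the list rose and 3 fell among 36 above background.

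Rows naming only microRNAs mostly stand for copies. Of 57 rows 20 were above background and 2 rose, which name MIR1184-1, MIR1184-2 and MIR1184-3 and share identical values. They were at 8.01 and 8.15 untreated and 8.73 and 9.04 treated, 1.75-fold higher. The 3 genes have the same mature sequence, printed above, at 3 places on chromosome X, so they count as a single measurement. These places lie within F8A1, F8A2 and F8A3, whose shared row also rose, so that rise is not from separate loci. Only positions were compared and not strands, so the rows need not report the same transcript. A further row naming only MIR1184-3 rose by 0.77 on the log2 scale. MIR6862-1 / MIR6862-2 differed by 0.98 (SE 0.24) and MIR1233-1 / MIR1233-2 by 0.49 (SE 0.19) without passing. Rows naming only snoRNAs were above background in 5 of 22 cases, with a median of 0.27. In the trended fit 0 were called, and 1 of the 22 had an unadjusted limma p under 0.05 in either fit. Of 482 rows naming 1 snoRNA gene, 55 did in the trended fit and 52 in the default fit.

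The 695 rows that name only other genes were grouped by how the genes lie in RefSeq. Genes that do not overlap made up 215 rows with all genes within 100 kb and 191 with genes farther apart or on other chromosomes. A readthrough gene with its parts was named by 56 rows, overlapping genes by 72 rows with at least 2 coding genes, 62 rows with 1 coding gene and 35 with none, and 64 rows had fewer than 2 placed genes. Among rows above background the median difference was -0.19 for readthrough rows, -0.25 for either kind of overlap with a coding gene, -0.05 for neighbours and 0.00 for genes farther apart. When rows with identical values were counted once, neighbours were at -0.12 and genes farther apart at -0.11, so the last values rest on repeated rows.

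The row naming TRIOBP and NOL12 was the 1 row that passed in the default fit. TRIOBP encodes an actin-bundling protein and NOL12 a nucleolar protein of ribosomal RNA processing, and both genes lie on chromosome 22, at 37697048 to 37776556 and 37686343 to 37693474. The row was at 8.73 and 8.76 untreated and at 6.44 and 6.67 treated, 4.56-fold lower, and the groups lay far apart. Its log2 difference was -2.19 (SE 0.19, limma adjusted p = 0.0486 in the default fit and 0.000909 in the trended fit). It was called in the trended fit whichever array was left out, while in the default fit it did not pass with the replicate number as a block, nor without any 1 of the arrays. Which of the genes changed cannot be told from the row.

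Of the 36 readthrough rows above background 4 fell and 0 rose. COMMD3-BMI1 / BMI1 / COMMD3 was at 9.75 and 9.73 untreated and 8.47 and 8.31 treated, 2.55-fold lower, and was called whichever array was left out. BMI1 encodes a Polycomb repressive complex 1 subunit and COMMD3 an endosomal trafficking protein. MSH5 / MSH5-SAPCD1 / SAPCD1, whose first gene acts in meiotic recombination, fell 2.56-fold from 7.09 and 7.32 to 5.62 and 6.08. SGK3 / C8orf44-SGK3, of a kinase of the SGK family, also fell 2.56-fold, and a row naming only SGK3 fell by 1.13 on the log2 scale. CORO7 / PAM16 / CORO7-PAM16 fell 2.02-fold. The highest readthrough row, FMC1-LUC7L2 / LUC7L2 / FMC1, with the U1 snRNP-associated gene LUC7L2, differed by 0.46 (SE 0.19) and did not pass (limma adjusted p = 0.0915 in the trended fit).

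Overlapping and neighbouring genes followed. EFCAB7 / DLEU2L fell from 5.68 and 5.03 to 3.36 and 3.39 and ASPRV1 / PCBP1-AS1 from 5.81 and 6.07 to 4.56 and 4.28. Neither exceeded background on a treated array, so the falls are at least 1.21-fold and 1.82-fold. PLCG1 / RPL23AP81, of phospholipase C gamma, fell 3.02-fold and was above background in 1 of the 2 treated arrays. CCDC32 / MRPL42P5, whose coding gene acts in clathrin-mediated endocytosis, fell 2.03-fold from 10.72 and 10.78 to 9.77 and 9.70 and was called whichever array was left out. RAD54B / FSBP, of a recombination factor whose gene shares exons with FSBP, fell 1.87-fold. LRR1 / RHOQP1 fell 1.96-fold, TXNDC12 / KTI12 1.65-fold, TMX2 / SELENOH 1.59-fold and PPCS / CCDC30 1.49-fold. Of the rows that rose, NUP62 / IL4I1 was at 8.63 and 8.58 and then at 9.15 and 9.37, 1.57-fold higher. NUP62 encodes a protein of the nuclear pore channel.

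Rows of near-identical copies are uncertain, since probes cannot separate them. SMN1 / SMN2 rose 1.59-fold, from 10.05 and 9.81 to 10.71 and 10.48, and a row naming only SMN1 differed by 0.53 without passing. SMN protein assembles spliceosomal snRNPs, and the copies differ in how an exon near their end is spliced, which a row of the whole gene does not show. F8A2 / F8A3 / F8A1, of a huntingtin-associated protein, rose 1.42-fold from 10.40 and 10.39 to 10.85 and 10.96. The MIR1184 genes described above lie within these genes. GTF2H2 / GTF2H2B, of a subunit of the repair and transcription factor TFIIH, fell 1.66-fold. The pseudogene rows ULK4P3 / ULK4P2 and GOLGA6L5P / GOLGA6L17P fell 2.53-fold and 1.96-fold, with 1 treated value of the former under background. A row of T cell receptor beta segments fell 1.90-fold, from 9.03 and 8.95 to 8.19 and 7.94. Of 3 T cell markers measured, CD3E was above background and CD3D and CD2 were not, and their part in this fall was not tested.

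RNU2-1 / U2, the gene of U2 snRNA, had 1 profile, at 9.55 and 9.40 untreated and 9.94 and 9.90 treated. It was shared by 12 rows, not all of which carry both names. The groups did not overlap, as for 21.1% of all rows tested in this direction, and RNU2-1 / U2 did not pass (limma adjusted p = 0.122 in the trended fit). The 4 brightest rows of the class were MTRNR2L2 / MTRNR2L12, the mitochondrially encoded ND4L / ND4 and ATP8 / ATP6 / COX3, and the immunoglobulin kappa locus, with differences between -0.12 and 0.02. At the kappa locus, which supplies the light chain in many myelomas, the arrays were at 13.79, 13.80, 13.83 and 13.80.

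**Figure D3:**
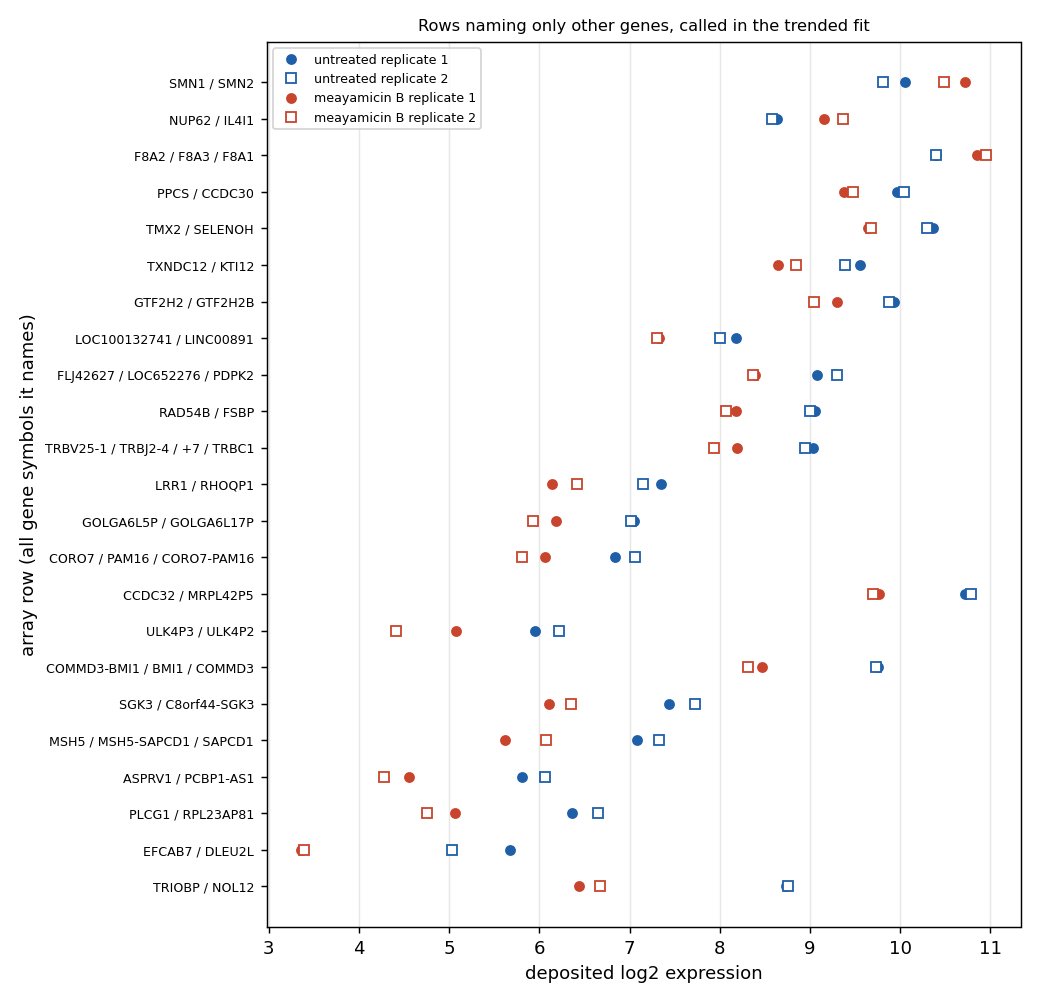
Deposited log2 expression (x axis) on each of the 4 arrays for the rows naming only other genes that were called in the trended fit, ordered by their difference. Blue is untreated and red meayamicin B. The 3 rows at the top rose and the 20 below them fell.

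The last question was whether a row naming several genes and another row with the same symbol changed by the same amount. Both rows were above background in 905 pairs, of which 308 included a row naming several genes. Differences within each array were fitted in limma, so that no level was compared between rows. Of the 308 pairs 13 changed unequally (limma adjusted p under 0.05 over all pairs, where 2.43% passed). Of these 13, 9 are the same U2 values repeated, which leaves 5 distinct pairs. With the intensity-dependent prior or with a replicate block 0 pairs passed, and with repeated values counted once 1 passed, so these calls are weak.

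LMNB2, the gene of lamin B2, shares a row with MIR7108 that was at 7.02 and 7.26 untreated and 7.12 and 7.21 treated. The row naming only LMNB2 was at 4.45 and 4.85, the first of these under background, and then at 7.26 and 7.54, and the log2 difference of the shared row minus that of the LMNB2 row was -2.72 (SE 0.15, limma adjusted p = 0.0353). For ZFAS1 the corresponding gap between its row and the row shared with SNORD12, SNORD12B and SNORD12C, shared row minus its own, was -3.34 (SE 0.28, limma adjusted p = 0.0456). The shared row stayed between 10.29 and 10.41 on all arrays. FLJ42627 / LOC652276 / PDPK2 fell while a row of FLJ42627 differed by 0.48 without passing, and the gap between these rows passed. The shared row's gaps from a second FLJ42627 row (-1.14, limma adjusted p = 0.116) and a LOC652276 row (-0.90, limma adjusted p = 0.0726) did not pass. The gap between ULK4P1 / ULK4P2 and GOLGA8K / ULK4P1 also passed. ULK4P1 / ULK4P2 was barely above background untreated and under it on both treated arrays, so its own difference is not measured and that gap is not given a size. Above background, 4 rows named only U2. The 1 whose gap from RNU2-1 / U2 passed lies on another chromosome by its identifier, and was at 5.58 and 5.28 and then at 4.70 and 4.54, under background on both treated arrays. The U2 row on the same chromosome as RNU2-1 / U2 rose, from 9.49 and 9.47 to 10.06 and 10.08, and its gap from that row was -0.15 (SE 0.13, limma adjusted p = 0.61). The other 2 differed by -0.52 and -0.35 without passing. TIPIN, a replication fork protein, fell by 1.06 on the log2 scale on its own row and differed by 0.05 on the row TIPIN / RPL9P25, but the pair did not pass (limma adjusted p = 0.0731). GTF2H2 has 2 rows of its own. The first fell by 1.91 on the log2 scale against a fall of 0.73 on GTF2H2 / GTF2H2B, a gap that did not pass (limma adjusted p = 0.0709). The second, at 10.43 and 10.40 and then 10.04 and 9.64, differed by -0.57 without passing, and its gap from the shared row was -0.16 (SE 0.13, limma adjusted p = 0.599).

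**Figure D4:**
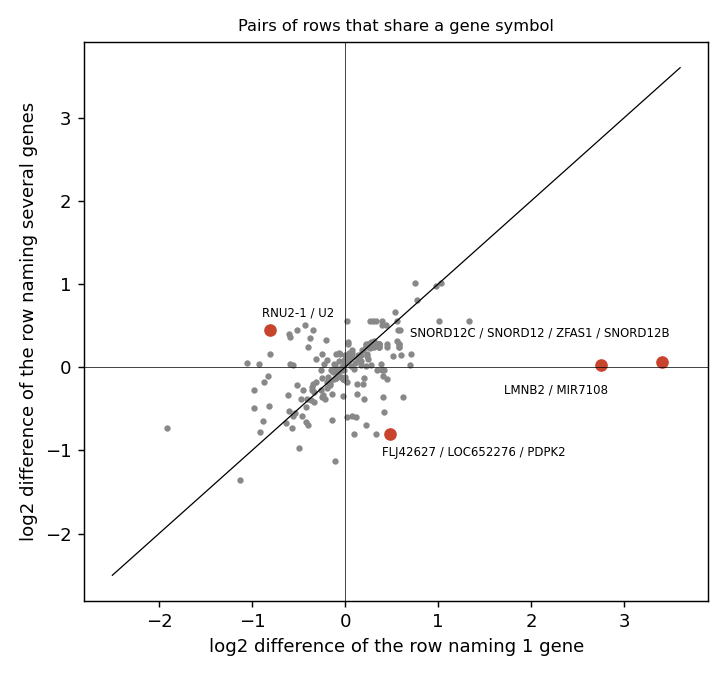
Log2 difference (meayamicin B minus untreated) of a row naming several genes (y axis) against that of a row naming 1 of those genes (x axis), for 196 distinct pairs above background, with the line of equal change. The 4 pairs in red changed unequally, and LMNB2 and ZFAS1 lie far to the right at differences near 0 on the y axis.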

How the data were processed

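RNA from 4 samples was measured on 1 whole-transcript array each. The deposited values are log2 expression, made by the authors with RMA and Transcriptome Analysis Console on hg38, per the submitters' processing notes. The sources used here give no versions, and the log2 scale was read from the values. RMA equalises array distributions, so a shift of all RNA would be removed. Of 138745 rows, 2995 control rows were left out. The 7 rows whose identifier names another chromosome than RefSeq were kept.

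The groups were compared with limma 3.58.1 under R 4.3.3, by lmFit and eBayes, over all 135750 rows with Benjamini-Hochberg adjustment, first with defaults and then with trend and robust priors (the trended fit). On simulated data both fits recovered the known changes, but false calls were more frequent than the adjusted threshold implies. The simulated rows were drawn with variances already pulled toward a common value, which may differ from the spread of these arrays. Whether the real fits behave alike, in recovery or in false calls, was therefore not settled. With 2 arrays a group, a p-value reflects how far these arrays vary, possibly for technical reasons alone. Same-numbered arrays deviated from their group means with r = 0.02, so no block was used. Symbols come from the platform annotation and sequences from RefSeq tables, where 355 of 393 microRNA genes and 67 of 84 genes sharing a row with a snoRNA matched. Folds against a group with no array above background are bounds.

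The members, lists, rules and the use of the trended fit were chosen with earlier results of these data known. Named rows were those called in the default fit, the 12 highest and 12 lowest per class, the 4 brightest, the 4 with most small RNA symbols, the 4 highest and lowest per list, and the pairs with the largest gaps. Not all are printed. The rule took calls from the default fit, so rows called in the trended fit outside these ranks, and rows of 1 gene set beside them, were named after their values were seen. The alternatives are given at the end.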

Additional observations from a re-analysis of the deposited data

How the results depend on the processing

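In the default fit 1 row passed. The count was 51 with the intensity-dependent prior and 44 among rows above background only, where the number of rows adjusted and the prior both changed. It was 0 with a replicate block, 0 after a second quantile normalization and 0 to 0 without each array in turn. In the trended fit, where 51 rows passed, the count was 121 with a replicate block, 129 among rows above background only, 21 at a minimum of 2-fold, and 12 to 34 without each array in turn. All 51 were among the 121 and the 129. The labels do not say that replicate numbers mark a batch, and the cause of the larger count under the block was not tested. Centring on ribosomal protein rows, which moved the median of rows above background by -0.08, gave 74 rows, 9 higher and 65 lower, and quantile normalization gave 38, 12 higher and 26 lower, against 13 and 38. The median of small-RNA rows moved to -0.13 with that centring, and the median of other rows to -0.20 with it and to -0.039 over all rows of the class. Of the 13 unequal pairs, 0 passed with the intensity-dependent prior, 0 with a replicate block, 2 without the filter on dim rows, 1 with each identical profile counted once (an alternative chosen after seeing the data), and 0 to 2 without each array in turn. No named row that was called reversed its direction under the alternatives run, though leaving out an array or adding the block could not have reversed it. With 2 arrays per group, small differences of dim rows were not detectable.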
